A study of Rattus norvegicus with 36 samples.

Results

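The miR-183 cluster is a polycistron, a single primary transcript from which miR-183, miR-96 and miR-182 are cut. Its members were taken as every row of the count table named rno-miR-182, rno-miR-183 or rno-miR-96, with or without an arm suffix, which gave 5 of the 723 mature rat miRNAs, namely both arms of miR-183, both arms of miR-96 and the single annotated form of miR-182. Only rno-miR-182 and rno-miR-183-5p had counts high enough for the model, in which 457 miRNAs were tested. The cluster was chosen from earlier results on these libraries, namely the changes of those 2 miRNAs at withdrawal in the prelimbic cortex (PL) and nucleus accumbens (NAc), so the comparisons of the withdrawal group in these 2 regions are described below without a test.

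The study sequenced small RNA from the infralimbic cortex (IL), PL and NAc of 12 male heterogeneous stock rats, an outbred line, with 4 rats in each of 3 groups and 3 libraries from each rat. Naive rats received no cocaine, withdrawal rats were killed 16 h after the last session of cocaine self-administration by the labels (the study's methods give a slightly later time), and abstinence rats went through 4 weeks of forced abstinence after the same self-administration, in which short daily access was followed by long access. The rats were matched for age at the start of self-administration. Each library was made from 1 piece of bulk tissue of 1 rat, so in all that follows fewer cells of a type and less RNA per cell cannot be told apart.

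Total counts per library ranged from 6192155 to 18877136, and the RNA integrity number (RIN) from 7.40 to 9.30. Levels are given as CPM, that is counts relative to the library size after TMM scaling, and a library in which a miRNA had no count allows up to 3 counts, which is 0.159 to 0.464 CPM depending on the library. The neuron-enriched miRNAs (miR-124, miR-9a, miR-128 and others, 20 names) summed to between 187695 and 662325 CPM, so each of the 36 libraries carried the markers of neural tissue. After TMM scaling, the highest of these sums was in the PL library of withdrawal rat M172, which also stands apart for the cluster.

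The miR-183 cluster is best known from sensory organs. It is abundant in photoreceptors, in the hair cells of the inner ear, in dorsal root ganglion neurons and in the olfactory epithelium, and changes in the seed of miR-96 cause progressive hearing loss in mouse and human. In brain tissue its members are rare. A miRNA recognises target mRNAs mainly through its seed, the bases from 2 to 8 counted from the 5′ end, so members with like seeds share part of their targets.

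In the GRCr8 assembly the 3 hairpins lie on the minus strand of chromosome 4, in the order of transcription Mir183 (chr4:59756044-59756153), Mir96 (chr4:59755841-59755946) and Mir182 (chr4:59752246-59752307). They span 3908 bases. Mir183 and Mir96 are 97 bases apart, and Mir182 follows 3533 bases after Mir96. The nearest protein-coding genes in the RefSeq table are Nrf1 on one side and Ube2h on the other. The mature 5′ arms of the 3 members are printed with the seed in capitals because the seeds show which members can share targets.
rno-miR-183-5p: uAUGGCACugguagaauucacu
rno-miR-96-5p: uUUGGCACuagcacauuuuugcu
rno-miR-182: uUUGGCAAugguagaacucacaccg
The bases from 2 to 7 of miR-96-5p and miR-182 are identical, and their 8th base differs. No other mature miRNA in the RefSeq table of rat miRNAs shares these bases, and none shares bases 2 to 7 with miR-183-5p. Counted from the 5′ end with the seed included, miR-183-5p and miR-182 carry the same base at 18 of the first 22 positions, against 13 of 22 for miR-183-5p with miR-96-5p and 12 of 23 for miR-182 with miR-96-5p.

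miR-183-5p and miR-182 were counted in all 36 libraries, whereas miR-96 was close to absent. miR-182 had 16 to 2473 counts per library (median 74.5), or 2.47 to 305 CPM with a median of 7.47 CPM. miR-183-5p had 57 to 12498 counts (median 170.5), or 6.21 to 1593 CPM with a median of 15.5 CPM. miR-96-5p, the arm that shares bases 2 to 7 with miR-182, had a count in 15 of 36 libraries and 88 counts in all. miR-183-3p, the opposite arm of the miR-183 hairpin, had a count in 4 libraries and 9 counts in all, and miR-96-3p had none. The 3 rows with few counts were left out of the model.

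A single withdrawal rat, M172, held most of the cluster's counts. Its 3 libraries gave 63.5% of the 7825 counts of miR-182 and 73.5% of the 28707 counts of miR-183-5p. They also gave 57 of the 88 counts of miR-96-5p and 5 of the 9 counts of miR-183-3p. The counts of miR-96-5p in this rat were 13 in the PL, 39 in the NAc and 5 in the IL, and the highest count in any other rat was 8.

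In the IL, the levels of miR-182 were lowest after abstinence. Naive rats M157, M378, M476 and M480 had 7.89, 3.90, 11.5 and 6.38 CPM. Withdrawal rats M153, M366, M172 and M154 had 8.47, 7.56, 9.36 and 5.29 CPM, and abstinence rats M170, M363, M472 and M456 had 2.47, 3.48, 4.203 and 3.07 CPM. All 4 abstinence libraries lay below all 4 withdrawal libraries, while 1 naive library (M378) lay within the abstinence range. miR-183-5p showed 3 high withdrawal libraries. In the same order of rats, its levels in the IL were 19.3, 9.89, 26.2 and 20.7 CPM in naive rats, and 49.7, 52.2, 89.7 and 16.1 CPM in withdrawal rats. Abstinence rats had 13.1, 11.3, 11.8 and 6.25 CPM. The abstinence libraries again lay below all withdrawal libraries and overlapped the naive range only through naive rat M378.

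In the PL, 3 libraries stood above the rest for both miRNAs, and they came from 1 naive and 2 withdrawal rats. For miR-182, naive rats had 16.8, 2.58, 4.57 and 3.77 CPM, the highest in M157. Withdrawal rats had 7.45, 17.1, 305 and 5.78 CPM, the highest in M172 and the next in M366, and abstinence rats had 4.61, 4.58, 4.85 and 7.58 CPM. The M172 library was 17.9-fold above the highest of the other 11 PL libraries and 63.0-fold above their median. For miR-183-5p, the PL levels were 119, 10.3, 12.5 and 9.12 CPM in naive rats and 17.98, 61.0, 1593 and 11.9 CPM in withdrawal rats. They were 15.7, 6.21, 7.53 and 24.4 CPM in abstinence rats. M172 was 127-fold above the median of the other 11 libraries and 13.4-fold above the highest of them, which was the naive rat M157. TMM scaling raised the values of this library. Scaled to its total count alone it was at 210.8 CPM for miR-182 and 1099 CPM for miR-183-5p.

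In the NAc, M172 stood apart, and M456 was the highest of the other 11 rats for both miRNAs. miR-182 was at 6.21, 10.6, 9.72 and 11.6 CPM in naive rats, at 10.8, 5.68, 204.6 and 7.49 CPM in withdrawal rats and at 9.22, 5.72, 9.09 and 15.6 CPM in abstinence rats. miR-183-5p was at 12.2, 14.3, 16.9 and 15.5 CPM in naive rats, at 21.9, 10.6, 637 and 7.202 CPM in withdrawal rats and at 14.99, 12.9, 15.6 and 26.5 CPM in abstinence rats. The M172 library was 22.2-fold above the median of the other 11 NAc libraries for miR-182 and 42.5-fold for miR-183-5p. The other 3 withdrawal rats lay on both sides of the naive range for miR-183-5p. In the PL and NAc of M366 the level of miR-183-5p went from 61.0 to 10.6 CPM, and in those of M157 from 119 to 12.2 CPM, so the high level in these rats was not shared by all their regions.

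**Figure D1:**
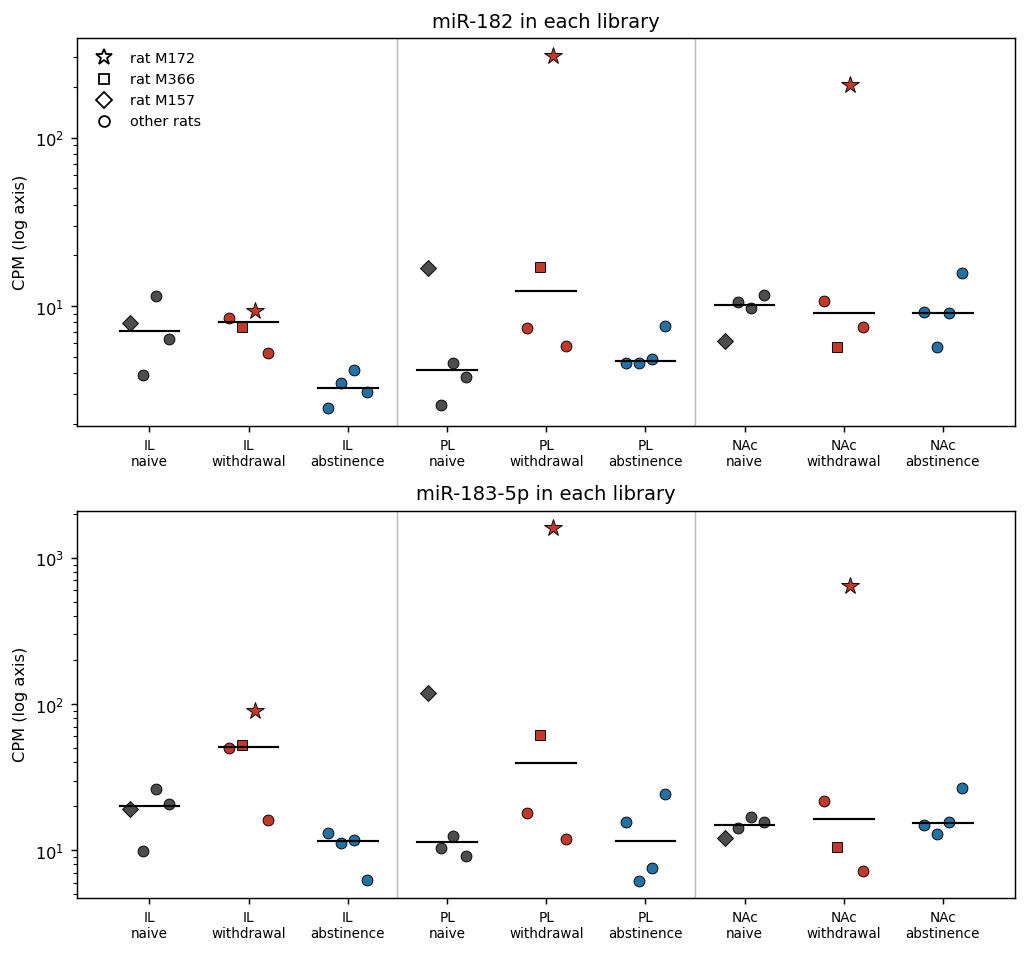
CPM of miR-182 (upper panel) and miR-183-5p (lower panel) on log axes in each of the 36 libraries, by region and group, with a bar at the median of each group of 4. The star marks withdrawal rat M172, which reached 305 and 1593 CPM in the PL and 204.6 and 637 CPM in the NAc, the square withdrawal rat M366 and the diamond naive rat M157.

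Ordered by the median of the 4 rats, miR-182 was lowest in abstinence IL (3.27 CPM), followed by naive PL (4.17), abstinence PL (4.73), naive IL (7.13), withdrawal IL (8.02), withdrawal NAc (9.14), abstinence NAc (9.16), naive NAc (10.2) and withdrawal PL (12.2 CPM). For miR-183-5p the order was naive PL (11.4 CPM), abstinence IL (11.5), abstinence PL (11.6), naive NAc (14.9), abstinence NAc (15.3), withdrawal NAc (16.2), naive IL (19.99), withdrawal PL (39.5) and withdrawal IL (51.0 CPM). For each miRNA, all 8 pairs of neighbours in this order overlapped.

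The withdrawal changes that led to the choice of the cluster depended on M172, and in the PL on naive rat M157 as well. In the PL, the fitted log2 fold change of withdrawal against naive was 3.36 for miR-182 and 3.19 for miR-183-5p, and without M172 the values were 0.56 and -0.28. In the NAc they were 2.40 and 3.24 with all rats, and -0.30 and -0.22 without M172. Leaving out any other rat kept both values above 0 in both regions. By limma-voom, the values were 1.80 and 1.57 in the PL and 0.76 and 0.97 in the NAc. Abstinence against withdrawal, which shares the withdrawal libraries, gave -3.45 and -4.43 in the PL, and -0.83 and -1.13 without M172. In the NAc it gave -2.19 and -2.79, and 0.41 and 0.56 without M172, so there the direction turned. Leaving out M157, the naive rat with the high PL library, raised the PL withdrawal change to 4.22 for miR-182 and 4.90 for miR-183-5p. For miR-182, the withdrawal PL libraries (5.78 to 305 CPM) overlapped the naive ones through M157 (16.8 CPM), and the other naive libraries lay at 2.58 to 4.57 CPM. These libraries led to the choice of the cluster, and M157 was set aside after its level was known. The share of all miRNAs that separate in this way is not given here. For miR-183-5p the groups overlapped also without M157, with withdrawal rat M154 at 11.9 CPM and naive rat M476 at 12.5 CPM.

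**Figure D2:**
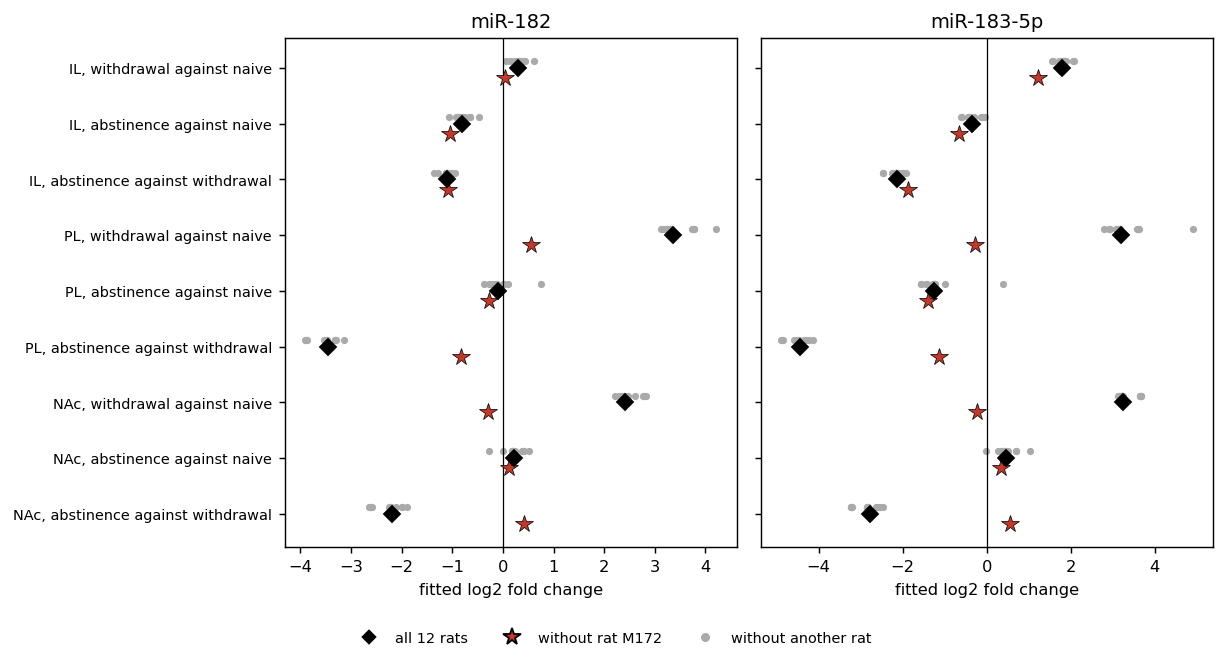
Fitted log2 fold changes of miR-182 (left) and miR-183-5p (right) for 3 comparisons in each region, with all 12 rats (diamonds), without M172 (stars) and without each other rat (grey points). The PL and NAc comparisons that hold the withdrawal group move towards 0 or past it without M172, while the IL values keep their sign.

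The question whether the cluster changed at withdrawal and after abstinence was tested in the IL, whose libraries did not lead to its choice. These libraries came from the same rats as those that did, so the test was not independent of the choice. M172 was also the highest IL library for miR-183-5p (89.7 CPM). Following the study, a miRNA was called higher or lower where its fold change reached 1.5 and its p before adjustment was below 0.05, and the adjusted p is printed beside each value. Against naive rats, withdrawal gave a log2 fold change of 0.29 for miR-182 (SE 0.95, adjusted p = 0.888) and of 1.79 for miR-183-5p (SE 1.17, adjusted p = 0.516), so neither was called, where 6.35% of the 457 miRNAs were. The mean log2 CPM of miR-183-5p was 5.46 ± 1.04 in withdrawal and 4.17 ± 0.60 in naive rats (SD, n = 4 each), and the exact two-sided permutation test gave p = 0.114. For miR-182 the means were 2.92 ± 0.35 and 2.80 ± 0.65, with p = 0.771 by the same exact test.

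In the IL, all 4 abstinence libraries lay below all 4 withdrawal libraries for both miRNAs. The log2 fold change of abstinence against withdrawal was -1.11 for miR-182 (SE 0.97, adjusted p = 0.784) and -2.15 for miR-183-5p (SE 1.17, adjusted p = 0.681). Neither passed the thresholds, which 6.35% of miRNAs did. The mean log2 CPM was 2.92 ± 0.35 at withdrawal and 1.73 ± 0.31 after abstinence for miR-182, and 5.46 ± 1.04 and 3.36 ± 0.48 for miR-183-5p. The exact permutation test gave p = 0.0286 for each, the smallest p that 4 against 4 rats can give, among 10 such tests on the 2 members. Of the 457 miRNAs, 2.19% had abstinence libraries that all lay below the withdrawal libraries.

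These IL calls depended on which libraries were in the fit. The model takes 1 spread for each miRNA from all 36 libraries, among them the PL and NAc libraries of M172. Fitted on the 12 IL libraries alone, the log2 fold change of abstinence against withdrawal was -1.18 (SE 0.36, adjusted p = 0.229) for miR-182 and -2.28 (SE 0.45, adjusted p = 0.0592) for miR-183-5p, both past the thresholds, as were 7.22% of miRNAs in that fit. With M172 left out of all regions the values were -1.08 (adjusted p = 0.381) and -1.88 (adjusted p = 0.279), both again past the thresholds with 9.41% of all miRNAs. Without withdrawal rat M154, miR-183-5p alone passed (-2.47, adjusted p = 0.498), where 7.44% did. The IL library of M153 had 49.7 CPM of miR-183-5p. It also held the highest summed level of the choroid plexus and ependyma list (2844 CPM, against 1168 to 1980 CPM in the other 11). The other epithelial list was highest there too, at 502 CPM against 53.4 to 188 CPM. Of its 5 tested miRNAs, however, 1 was highest in that library, and 6 of its 10 names were at 0. In abstinence against withdrawal in the IL, 2 of these 5 had fitted values below 0, with a median of 0.29, and 1 was called lower. Without M153 the log2 fold changes of miR-182 and miR-183-5p in that comparison were -1.12 and -2.25. The 8 tested miRNAs of the choroid plexus and ependyma list (12 names) all had fitted values below 0 in the same comparison. Their median was -0.93, beside 0.02 over the 457 miRNAs, and 2 of them were called lower, beside 6.35% of all miRNAs called. All 8 were highest in the IL library of M153, and their values without this rat are not given here. The summed level of this list overlapped between the groups, at 1168 to 1748 CPM after abstinence, 1270 to 2844 CPM at withdrawal and 1434 to 1980 CPM in naive rats, and 2, 3 and 3 of the 12 names were at 0 in all 4 libraries of these groups. Its part in the levels of the cluster was not tested.

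Abstinence against naive rats was tested in all 3 regions, and no member was called in any. In the IL the log2 fold change was -0.82 for miR-182 (SE 1.01, adjusted p = 0.769) and -0.36 for miR-183-5p (SE 1.21, adjusted p = 0.959), where 8.32% of miRNAs were called. The exact permutation test gave p = 0.0571 for miR-182, with mean log2 CPM of 1.73 ± 0.31 after abstinence and 2.80 ± 0.65 in naive rats, and p = 0.114 for miR-183-5p. In the fit of the IL libraries alone, miR-182 passed the thresholds (log2 fold change -1.04, SE 0.42, adjusted p = 0.450), where 9.63% of miRNAs did, and so did withdrawal against naive for miR-183-5p (1.48, SE 0.46, adjusted p = 0.520), where 7.0% did. Without M172 in any region, miR-182 also passed in abstinence against naive (-1.04, adjusted p = 0.394), among 9.19% of miRNAs, and miR-183-5p in withdrawal against naive did not (1.22, adjusted p = 0.588), where 7.66% passed.

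In the PL, abstinence against naive gave -0.09 for miR-182 (SE 0.98, adjusted p = 0.991) and -1.24 for miR-183-5p (SE 1.16, adjusted p = 0.952), where 2.41% of all miRNAs were called. Without the naive rat M157 the values were 0.75 and 0.39. No other rat turned the sign of miR-183-5p, while the value of miR-182 lay near 0 and turned also without M170 (0.11), M472 (0.016) or M456 (0.0088). Without M172, which belongs to neither group, miR-183-5p was called lower (-1.41, adjusted p = 0.774), with M157 still among the naive rats, where 3.28% of miRNAs were called in either direction. In the NAc the values were 0.21 for miR-182 (SE 0.92, adjusted p = 0.955) and 0.45 for miR-183-5p (SE 1.12, adjusted p = 0.945), where 1.09% were called. The exact permutation p-values in these regions lay between 0.543 and 1.

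The abstinence change was not shown to differ between regions for either miRNA. For IL minus PL, the difference of the log2 fold changes was -0.73 for miR-182 (SE 1.34, adjusted p = 0.887) and 0.88 for miR-183-5p (SE 1.60, adjusted p = 0.887), where 8.32% of miRNAs were past the thresholds. For IL minus NAc it was -1.03 (SE 1.33, adjusted p = 0.996) and -0.81 (SE 1.61, adjusted p = 0.996), with 4.16% past them. For PL minus NAc it was -0.30 (SE 1.31, adjusted p = 0.983) and -1.70 (SE 1.59, adjusted p = 0.900), with 3.72% past them. With standard errors of this size, differences of several fold would not have been detected in this fit.

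Between regions of naive rats, compared within rats, neither member passed the thresholds, although most miRNAs did in the comparisons with the NAc. NAc against PL gave a log2 fold change of 0.68 for miR-182 (SE 0.51, adjusted p = 0.277) and -0.65 for miR-183-5p (SE 0.66, adjusted p = 0.422), where 57.1% of miRNAs were called. NAc against IL gave 0.45 (SE 0.49, adjusted p = 0.460) and -0.31 (SE 0.60, adjusted p = 0.686), where 56.9% were called, and IL against PL gave 0.23 (SE 0.51, adjusted p = 0.999) and -0.34 (SE 0.65, adjusted p = 0.999), where 0.656% were. The calls changed with rat M157. Without it, NAc against PL was 1.53 for miR-182 (SE 0.38, adjusted p = 0.0141), past the thresholds with 47.5% of miRNAs, and 0.47 for miR-183-5p (SE 0.32, adjusted p = 0.265). IL against PL then became 0.92 for miR-182 and 0.74 for miR-183-5p, each past the thresholds with 0.875% of miRNAs but with an adjusted p = 1. NAc against IL remained below them (0.61 and -0.27), where 53.8% passed. The NAc library of M480 was assigned to this rat by exclusion, and without M480 NAc against PL was 0.39 and -1.09 and NAc against IL was 0.30 and -0.25.

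Over all 12 rats, cocaine groups and M172 included and so described without a test, miR-182 was higher in the NAc than in the PL in 9 of 12 rats, with a median difference of 0.71 on the log2 scale, and higher in the NAc than in the IL in 9 of 12, with a median difference of 0.78. miR-183-5p was higher in the NAc than in the PL in 7 of 12 rats and than in the IL in 6 of 12.

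The 2 miRNAs come from 1 transcript, and their count ratio was not constant. Reads of different miRNAs are captured with different efficiency by ligation, so the ratio is compared only between libraries. miR-183-5p had between 0.961 and 9.59 counts for each count of miR-182, with a median of 2.43 over 36 libraries. The ratio was lower in the NAc than in the IL of the same rat in 12 of 12 rats, and lower in the NAc than in the PL in 10 of 12. In naive rats it was 1.33 to 1.96 in the NAc, 2.28 to 3.24 in the IL and 2.42 to 7.07 in the PL.

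Several libraries with much miR-183-5p, the numerator of this ratio, had high ratios for their region, and others did not. In the IL, withdrawal rats M153, M366 and M172 had ratios of 5.86 (95% exact interval 4.57 to 7.62), 6.91 (5.30 to 9.12) and 9.59 (7.76 to 11.97), which cover counting error only. The fourth withdrawal rat, M154, had 3.04 (2.16 to 4.36). In the PL, M157 had 7.07 (5.90 to 8.54) and M172 had 5.21 (4.99 to 5.45), and in the NAc M172 had 3.11 (2.97 to 3.26), the highest of the 12 NAc libraries. The PL library of M172 thus stood further above the other PL libraries for miR-183-5p (127-fold over their median) than for miR-182 (63.0-fold). Against this, M366 in the PL, with 61.0 CPM of miR-183-5p, had a ratio of 3.58, below that of M378 (4.00) with 10.3 CPM. M456, second in miR-183-5p in the NAc, had 1.70, and M476 in the IL, with 26.2 CPM the highest of the naive rats there, had 2.28. An abstinence IL library with few counts, M170, had a ratio of 5.31 with a wide interval (3.09 to 9.71).

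**Figure D3:**
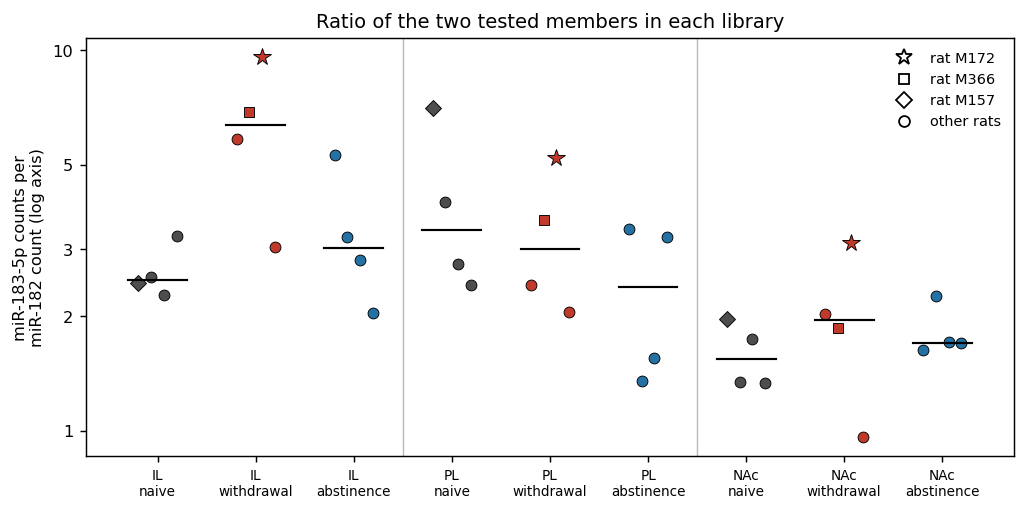
Counts of miR-183-5p for each count of miR-182 on a log axis in each of the 36 libraries, with a bar at the median of each group of 4 and the same rat symbols as in the plot of levels. The NAc libraries lie between 0.961 and 3.11, and the IL library of M172 is the highest at 9.59.

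The share of miR-96-5p is given as a description, since its counts are too few for a spread between rats and the intervals cover counting error only. In M172, it made up 0.539% of the counts of miR-96-5p and miR-182 together in the PL (13 of these counts, 95% exact interval 0.288% to 0.921%) and 1.55% in the NAc (39 counts, 1.11% to 2.12%). In the IL of this rat it was 5 counts beside 95 of miR-182 (95% exact interval 1.64% to 11.3%). In the 33 libraries of the other 11 rats it was 31 counts beside 2860 (1.07%, 0.730% to 1.52%).

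Over the 36 libraries, the miRNAs whose levels followed the cluster most closely by Pearson correlation belonged to the miR-200 family. This family marks epithelia and olfactory neurons and is encoded at other loci. As a description over libraries that share 12 rats and the scaling of each library, the 5 miRNAs most alike to miR-182 in log2 CPM were miR-183-5p (Pearson r = 0.90), miR-200b-3p (0.86), miR-200a-3p (0.85), miR-429 (0.82) and miR-200a-5p (0.74). For miR-183-5p they were miR-200b-3p (r = 0.92), miR-182 (0.90), miR-429 (0.85), miR-200a-5p (0.85) and miR-200c-3p (0.84). Without the 3 libraries of M172, r of miR-183-5p with miR-200b-3p was 0.82 and with miR-182 was 0.69, and with miR-200c-3p it was 0.42. For miR-182 the 5 most alike were then miR-200a-3p (0.76), miR-200b-3p (0.70), miR-183-5p (0.69), miR-30a-5p (0.66), which is no member of the family, and miR-429 (0.64), and r with miR-200a-5p was 0.38. By Spearman's rank correlation over all 36 libraries, miR-183-5p had 0.77 with miR-200b-3p, 0.79 with miR-182 and 0.34 with miR-200c-3p. By the same measure without M172, miR-182 had 0.77 with miR-200a-3p and 0.68 with miR-200b-3p. Next came miR-741-3p (0.62), which is outside the family. For miR-183-5p, miR-200b-3p (0.70) and miR-429 (0.67) were followed by miR-30d-5p (0.61) and miR-543-3p (0.55), both outside the family. Its value with miR-200c-3p was then 0.14.

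miR-200b-3p shows this library by library. In the PL it was at 572 CPM in M172, 62.5 in M157 and 44.1 in M366, against a median of 2.14 CPM in the 11 PL libraries other than M172. In the NAc it was at 342 CPM in M172, and the highest of the other 11 libraries was at 9.62 CPM. In the IL it was at 36.4 CPM in M172, 22.9 in M366 and 12.3 in M153, the same 3 libraries that were high for miR-183-5p.

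**Figure D4:**
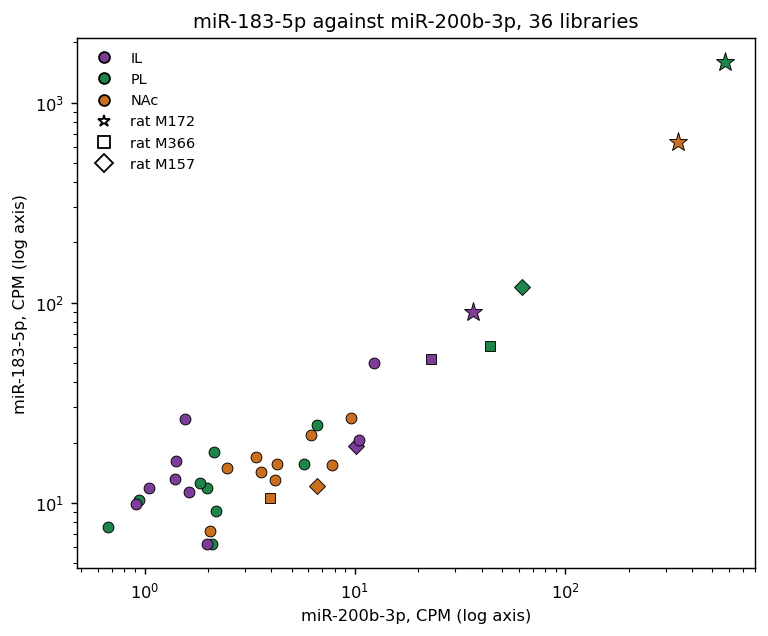
CPM of miR-183-5p against CPM of miR-200b-3p, both on log axes, for the 36 libraries, coloured by region. M172 (stars) lies at the upper end in the PL (572 and 1593 CPM) and NAc (342 and 637 CPM), with the PL libraries of M157 and M366 and the IL library of M172 next in miR-200b-3p.

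The tested part of the miR-200 list was high in the same libraries. Of its 9 names, 6 were tested, and all 6 were highest of the 12 libraries in the PL and in the NAc of M172. The filter on low counts took in the libraries of M172, which favours miRNAs that are high there. In the other 11 PL libraries miR-200a-5p, miR-200b-5p and miR-429 had medians of 0, 0.0792 and 0.121 CPM. The count of 6 was thus partly set by the selection, and in the PL also favoured by TMM scaling (factor 0.690). The share of all 457 miRNAs that were highest in these 2 libraries is not given here, so the count lacks a background. The summed level of the miR-200 list in M172 was 846 CPM in the PL, against 9.54 to 99.04 CPM in the other 11. It was 527 CPM in the NAc, against 9.09 to 22.0 CPM. Of the other 3 names, miR-141-3p had 5 counts in each of these 2 libraries, miR-141-5p had 0 in the PL and 2 in the NAc, and miR-200c-5p was at 0 in all. In abstinence against withdrawal in the IL, all 6 tested names had fitted values below 0. Their median was -3.26, beside 0.02 over the 457 miRNAs. Among them miR-200b-3p alone passed the thresholds (log2 fold change -3.49, SE 1.60, adjusted p = 0.529), as did 6.35% of all miRNAs. Several of these values rest on few counts. In the abstinence IL libraries miR-429 had no count, and miR-200a-3p, miR-200a-5p and miR-200b-5p had at most 4, 2 and 2. The SEs of these miRNAs were 1.91 to 3.02. The better counted miR-200c-3p was at -0.50 (SE 0.69, adjusted p = 0.851). In the other 4 tested comparisons, where 6.35%, 8.32%, 2.41% and 1.09% of all miRNAs passed, none of the 6 did, with medians of 2.31 for withdrawal against naive in the IL and -1.29, -2.12 and 0.53 for abstinence against naive in the IL, PL and NAc. The part of other cells in the cluster's levels was not tested.

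Among the other marker lists, muscle and neuron-enriched miRNAs had their highest sum after TMM scaling in the PL library of M172. No list had its highest sum in the NAc library of M172. TMM scaling raised all values of this rat's PL library (factor 0.690). The next highest muscle sum in the PL (124.5 CPM) was in an abstinence library, and the factors of the abstinence PL libraries were 0.846 to 1.06. Scaled to the total count alone, the muscle sum of M172 was therefore not the highest in the PL. Whether the neuron-enriched sum stays highest on that scale was not tested. In the PL of M172 the other epithelial list (miR-203, miR-205, miR-31 and miR-375, 10 names with 6 at 0 in this library) summed to 79.4 CPM, inside the 60.5 to 110 CPM of the other 11. In its NAc library the list summed to 51.5 CPM, against 43.5 to 88.4 CPM. The choroid plexus and ependyma list (12 names) summed to 1714 CPM in the PL, against 1141 to 1912 CPM, and to 2201 CPM in the NAc, against 1548 to 2610 CPM. The oligodendrocyte list (2 names) summed to 744 and 1248 CPM, the immune list (10) to 4636 and 2791 CPM and the vascular list (7) to 7497 and 9920 CPM, each inside the range of the other 11 libraries of its region. The muscle list (14 names, 9 at 0 in each of these libraries) was highest in the PL of M172 only after TMM scaling, at 134 CPM against 54.1 to 124.5 CPM. It was 64.9 CPM in the NAc, against 32.0 to 96.2 CPM. The neuron-enriched list was highest in the PL of M172 (662325 CPM, against 226541 to 552078 CPM) and second in its NAc (369054 CPM, against 187695 to 393966 CPM). M172 had a RIN of 9.30 in the PL, 9.10 in the NAc and 8.90 in the IL.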

How the data were processed

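Small RNA libraries (NEBNext) of 36 tissue pieces were processed by the authors with CAP-miRseq, and the deposited table holds raw read counts of 723 mature miRNAs. The methods and the submitters' processing notes name different rat genome builds, and no coordinate was taken from the table. Groups came from the labels and rat numbers from the study's sample list, except that 1 naive NAc library, not matched there, was assigned to M480, the naive rat left without one. The members and lists were chosen with earlier results of these data known. The 457 miRNAs kept by filterByExpr (minimum count 10, minimum total 15) were scaled by TMM and tested with edgeR 4.0.16 (R 4.3.3) quasi-likelihood on 9 group means and RIN over all 36 libraries, and naive regions with the rat as a block. Adjusted p-values are Benjamini-Hochberg over 457 miRNAs. Log2 CPM used a prior count of 0.5, and the permutation tests (scipy) were exact and two-sided. The p-values of the group comparisons measure the spread between libraries, those of the naive regions the spread within rats. The 3 regions of a rat were paired: deviations from the group means correlated with a median r of 0.15 to 0.27 between regions (lowest -0.14, highest 0.70), and limma's consensus correlation was 0.117. Alternatives used limma 3.58.1 and DESeq2 1.42.0. No 2 libraries of a group agreed within sampling noise, with at least 227 for chi-square per degree of freedom in 54 pairs. Named besides the members were the miR-200 list, miRNAs sharing bases 2 to 7 with a member and the 5 most alike. RefSeq mature sequences matched 645 of 723 names. The model was tested on simulated data, and the outcome is not given here.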

Additional observations from a re-analysis of the deposited data

Results flagged for a closer look

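The highest and lowest library of each group of 4 were examined for miR-182 and miR-183-5p in all 9 groups, 18 sets in all, of which chance would single out about 1 in 20. A library was singled out where its gap to the nearest other library, divided by the range of the group, exceeded Dixon's 95% critical value. For miR-183-5p in the PL of naive rats, M157 lay far above the other 3 at a log2 CPM of 6.90 (ratio 0.876). For miR-182 in the PL of abstinence rats, M456 was at 2.93 (ratio 0.891), within a group whose whole range was 4.58 to 7.58 CPM. The PL and NAc libraries of M172 did not exceed this limit.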

How the results depend on the processing

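The effect sizes of the cluster kept their direction under RLE size factors, no filter on low counts, DESeq2 and no RIN covariate, and values that turned, crossed the thresholds or moved most are given here as log2 fold changes unless counts are named. With limma-voom, without and with the rat as replicate block, abstinence against naive in the PL turned for miR-182 (0.22 and 0.20), as did its PL minus NAc difference (0.028 and 0.026), miR-183-5p in abstinence against naive in the PL was -0.46 and -0.48 and its IL minus PL difference 0.057 and 0.045, the described miR-182 changes were 1.80 and 1.81 (PL) and 0.76 and 0.76 (NAc) for withdrawal against naive and -1.58 and -1.60 (PL) and -0.57 and -0.59 (NAc) for abstinence against withdrawal, and those of miR-183-5p were 1.57 and 1.58 (PL, withdrawal against naive), 0.97 and 0.98 (NAc, withdrawal against naive), -2.02 and -2.06 (PL, abstinence against withdrawal) and -0.56 and -0.58 (NAc, abstinence against withdrawal). The block changed no call on the members. With no block in naive rats, miR-183-5p was -1.48 (NAc against PL) and -1.05 (IL against PL). With the libraries of 1 region, values past the thresholds were -1.04 (miR-182, abstinence against naive, IL), -1.18 and -2.28 (miR-182 and miR-183-5p, abstinence against withdrawal, IL) and 1.48 (miR-183-5p, withdrawal against naive, IL), and miR-182 turned in the PL (0.43). Without M172 as well, an alternative chosen after seeing the data, they were -1.04, -1.12, -1.94 and 1.05. By DESeq2, miR-183-5p passed narrowly, and before adjustment only, in abstinence against withdrawal in the IL (-2.14). The calls in the fit of 1 region without M172 did not hold after adjustment either. The share of all miRNAs past the thresholds is not given here for that fit or for DESeq2, so these calls lack a background to compare with. With all 12 rats and the rat as block, a fit that holds the libraries behind the choice of the cluster, miR-182 was 0.92 (NAc against IL) and -0.55 (IL against PL). The causes were not tested.

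Leaving out each rat in turn, miR-182 ranged from 0.56 to 4.22 (PL) and -0.30 to 2.82 (NAc) for withdrawal against naive, from -1.06 to -0.48 (IL), -0.38 to 0.75 (PL) and -0.28 to 0.51 (NAc) for abstinence against naive, and from -1.36 to -0.94 (IL), -3.90 to -0.83 (PL) and -2.64 to 0.41 (NAc) for abstinence against withdrawal. miR-183-5p ranged from -0.28 to 4.90 (PL) and -0.22 to 3.67 (NAc), from -1.57 to 0.39 (PL) and -0.021 to 1.03 (NAc), and from -2.47 to -1.88 (IL), -4.88 to -1.13 (PL) and -3.24 to 0.56 (NAc). The PL minus NAc difference ranged from -0.71 to 0.75 for miR-182 and -2.47 to 0.12 for miR-183-5p, and IL minus PL from -0.83 to 1.39 for miR-183-5p. In naive rats, miR-182 ranged from 0.39 to 1.53 (NAc against PL) and -0.17 to 0.92 (IL against PL), and miR-183-5p from -1.09 to 0.47 and -0.85 to 0.74.

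The 29 miRNAs past the thresholds for withdrawal against naive in the IL became 19 by limma-voom and 45 without RIN, and ranged from 8 to 58 without 1 rat. The 38 for abstinence against naive in the IL became 58 without RIN and ranged from 24 to 73. The 29 for abstinence against withdrawal in the IL became 18 by limma-voom with or without the block and ranged from 17 to 43. In the PL, the 11 became 17 without the filter and ranged from 8 to 23. In the NAc, the 5 became 15 without the filter, 11 by limma-voom, 10 with the block and 10 without RIN, and ranged from 0 to 29. The 3 for IL against PL in naive rats became 5 with no block and 82 with all 12 rats, and ranged from 3 to 13. With M172 among the libraries, the standard errors of the cluster's changes were too large to detect changes of several fold in the PL and NAc.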
